A study of Mus musculus with 51 samples.

Results

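The regulatory landscape of 10 genes that encode Atf3 and the AP-1 transcription factors or their partners (Atf3, Fos, Fosb, Fosl1, Fosl2, Jun, Junb, Jund, Batf3 and Maff) was described during astrogliogenesis. The members were every peak of H3K27ac or H3K4me1 that overlapped the gene body of one of these genes or the 20 kb on either side of it. These windows held 508 of the 803595 peaks in the 6 peak lists, and all 10 genes were found among the 22359 protein-coding genes of the annotation. Mouse embryonic stem cells (ESCs) of the C57/BL-6 background were turned into astrogliogenic neural precursor cells (aNPC), which grew in N2 medium with EGF and FGF-2. In DMEM with FBS and LIF these became early astrocytes (eA) after 1 day and late astrocytes (lA) after 5 days. Each stage and mark had 2 ChIP-seq replicates. The authors merged them before calling peaks, without an input control, so that 1 list of peaks per stage and mark stands for both. No genetic change or siRNA was present in these groups, and the knockdown and RNA-seq samples were not used here. With merged lists no error between cultures can be given and no test was made: the text describes where peaks were called, and a region without a peak lay under a calling threshold whose depth is unknown.

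AP-1 is a dimer of bZIP proteins, usually of a Fos protein with a Jun protein, that binds the TPA response element TGACTCA. Atf3 belongs to the ATF/CREB branch of the bZIP family, which prefers the cAMP response element (CRE) TGACGTCA, and pairs with Jun proteins as well. Most of these genes are immediate early genes, transcribed within minutes of a growth factor, cytokine or stress signal through MAP kinases and through serum response factor on CArG boxes. In astrocytes they are known as early responders to injury and inflammation. H3K27ac marks active promoters and enhancers, and H3K4me1 marks enhancers whether active or only primed.

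The promoters of 4 members are shown first as examples of promoters with a CArG box or a match to a bZIP site. Jund and Fosb, described below, had such matches as well and are not shown, and Fosl1 had TGAGTCA in the H3K27ac region at its start site, farther behind the start than these windows reach. They are given on the strand of the gene in mm9, and capitals mark the matches. The Atf3, Maff and Jun windows run from 250 bases before to 30 after the start site, and the Fos window from 350 to 51 bases before it. They lie at chr1:193007190-193007469 (Atf3, minus strand), chr15:79177721-79178000 (Maff, plus strand), chr4:94718884-94719163 (Jun, minus strand) and chr12:86814490-86814789 (Fos, plus strand). The Jun window also lies in an intron of the antisense transcript BC042782.
Atf3 promoter: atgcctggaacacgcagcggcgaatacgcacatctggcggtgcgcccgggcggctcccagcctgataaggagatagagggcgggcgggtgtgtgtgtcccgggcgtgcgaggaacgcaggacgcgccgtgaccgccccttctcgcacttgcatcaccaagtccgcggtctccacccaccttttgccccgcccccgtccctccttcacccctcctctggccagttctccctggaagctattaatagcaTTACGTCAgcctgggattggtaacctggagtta
Maff promoter: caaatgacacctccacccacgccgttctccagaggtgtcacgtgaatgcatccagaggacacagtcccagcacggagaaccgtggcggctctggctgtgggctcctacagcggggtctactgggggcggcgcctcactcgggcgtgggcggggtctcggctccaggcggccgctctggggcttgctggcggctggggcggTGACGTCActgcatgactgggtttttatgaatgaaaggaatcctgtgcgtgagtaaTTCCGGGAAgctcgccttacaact
Jun promoter: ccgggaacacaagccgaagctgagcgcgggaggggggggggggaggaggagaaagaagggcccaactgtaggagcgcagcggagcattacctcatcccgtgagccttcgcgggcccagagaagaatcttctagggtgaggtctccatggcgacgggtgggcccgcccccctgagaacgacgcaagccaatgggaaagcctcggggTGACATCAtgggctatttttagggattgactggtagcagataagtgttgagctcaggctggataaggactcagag
Fos promoter: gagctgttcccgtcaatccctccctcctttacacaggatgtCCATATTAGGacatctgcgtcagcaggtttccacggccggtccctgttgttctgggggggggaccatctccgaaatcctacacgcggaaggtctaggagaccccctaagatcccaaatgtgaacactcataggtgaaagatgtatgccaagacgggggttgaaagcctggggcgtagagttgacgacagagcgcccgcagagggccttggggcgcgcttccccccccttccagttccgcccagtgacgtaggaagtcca
The Atf3 start site overlapped TTACGTCA, which differs from the CRE and occurred within 250 bases before to 50 after the start in 0.509% of 46015 coding start sites. The Maff promoter held the CRE TGACGTCA, found in 2.13% of these start sites, and behind its start site a STAT match TTCNNNGAA, found in 7.59%. The Jun promoter held TGACATCA, found in 2.54% of start sites. In the Fos promoter the capitals are a CArG box. None of the 10 genes had a CArG box from 250 bases before to 50 after a start site, where 1.35% of start sites had one, and the Fos window was moved upstream to hold it. In that moved window 1.49% of start sites held one. None of the 10 genes had TGACTCA itself in the window around its start site, where 4.27% of start sites had it. Among the others, Jund held a CRE before the second of its start sites and Batf3 a STAT match. The letters TTACGTCA and TGACATCA were added to the motifs after these promoters had been seen, all motifs were read on both strands, and none contains another. A match describes the letters and does not show binding.

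Of the elements within H3K27ac regions, 6 are shown because the results below turn on them, 5 from distal regions and the Atf3 intron element from the promoter region. They are given on the plus strand of mm9, with capitals for TGACTCA or its reverse complement TGAGTCA, for the STAT match and the RUNX motif TGTGGTT in the Atf3 upstream element, and for the 11 bases around the eA summit in the Fosb element, which held none of these motifs. The windows with TGACTCA or TGAGTCA were centred on their matches, not on summits. In the Fosl1 and Junb elements at least 1 match also lay within 100 bp of an H3K27ac summit, and in the Atf3 intron and Maff elements none did.
Atf3 intron element: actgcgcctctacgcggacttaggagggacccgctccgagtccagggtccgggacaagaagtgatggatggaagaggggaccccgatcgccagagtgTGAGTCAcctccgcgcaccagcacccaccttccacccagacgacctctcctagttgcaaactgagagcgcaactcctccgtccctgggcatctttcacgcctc
Atf3 upstream element: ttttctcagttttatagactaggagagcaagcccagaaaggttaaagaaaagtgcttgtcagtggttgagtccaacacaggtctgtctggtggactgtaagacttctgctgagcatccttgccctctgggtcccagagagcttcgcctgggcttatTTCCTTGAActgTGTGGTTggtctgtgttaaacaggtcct
Fosb upstream element: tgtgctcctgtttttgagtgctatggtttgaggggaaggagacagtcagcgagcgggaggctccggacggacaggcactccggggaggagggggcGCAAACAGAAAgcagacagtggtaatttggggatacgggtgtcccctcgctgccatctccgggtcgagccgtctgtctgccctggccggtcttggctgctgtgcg
Fosl1 upstream element: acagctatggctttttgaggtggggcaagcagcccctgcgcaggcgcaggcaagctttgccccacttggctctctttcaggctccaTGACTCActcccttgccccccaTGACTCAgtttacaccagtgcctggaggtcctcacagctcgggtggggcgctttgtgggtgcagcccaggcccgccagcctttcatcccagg
Junb upstream element: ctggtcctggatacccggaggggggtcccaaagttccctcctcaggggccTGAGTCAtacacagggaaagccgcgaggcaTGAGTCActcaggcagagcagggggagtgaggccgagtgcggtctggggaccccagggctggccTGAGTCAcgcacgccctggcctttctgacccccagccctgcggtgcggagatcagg
Maff downstream element: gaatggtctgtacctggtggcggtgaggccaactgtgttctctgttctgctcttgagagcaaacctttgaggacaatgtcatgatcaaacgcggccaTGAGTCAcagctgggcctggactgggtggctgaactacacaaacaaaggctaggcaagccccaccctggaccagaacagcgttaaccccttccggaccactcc
These lie at chr1:193006567-193006766 in an intron of Atf3, chr1:193013430-193013625 upstream of Atf3, chr7:19905197-19905396 upstream of Fosb, chr19:5433455-5433654 upstream of Fosl1, chr8:87509506-87509705 upstream of Junb, and chr15:79199015-79199214 in an intron of Tmem184b, a neighbour of Maff. The 4 upstream elements overlapped no annotated transcript.

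The number of peaks at the 10 genes was nearly the same at each stage for H3K27ac and higher at the later stages for H3K4me1. For H3K27ac the windows held 68, 68 and 67 peaks in the order aNPC, eA, lA. For H3K4me1 they held 90, 103 and 112. The whole H3K4me1 lists also grew, from 154238 peaks in aNPC to 208333 in lA. When the lists of a mark were limited to the same number of their strongest peaks, the windows held 90, 88 and 85 H3K4me1 peaks and 68, 68 and 61 H3K27ac peaks, so that the higher numbers were not seen. Peaks covered 38.0 kb of the windows for H3K27ac at the first stage, 42.8 kb at the next and 39.9 kb at the last, and for H3K4me1 65.6, 71.7 and 66.9 kb.

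The windows were denser in both marks than those of most coding genes. Among coding genes the median share of the window under H3K27ac peaks was 2.47%, 2.80% and 2.70% in aNPC, eA and lA. All 10 genes lay above this median in aNPC and lA, and 9 did in eA. Atf3 in eA was the exception at 2.47%. The Fos window filled up most with differentiation, from 6.41% through 13.01% to 13.9%. Junb peaked at 16.0% in eA, with 9.70% in aNPC and 12.2% in lA, and its window holds the promoters of Hook2, Prdx2 and Rnaseh2a, with 3 of its H3K27ac peaks at such promoters at each stage. Fosl1 went from 15.8% to 13.7% and 12.6%, and its window holds the promoters of 4 other genes (Ccdc85b, Ctsw, Efemp2 and Fibp). For H3K4me1 all 10 genes were above the median of all coding genes at each stage, and the widest shares were those of Fosl1 in aNPC and Fos in lA, with 23.6% and 23.2%.

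**Figure D1:**
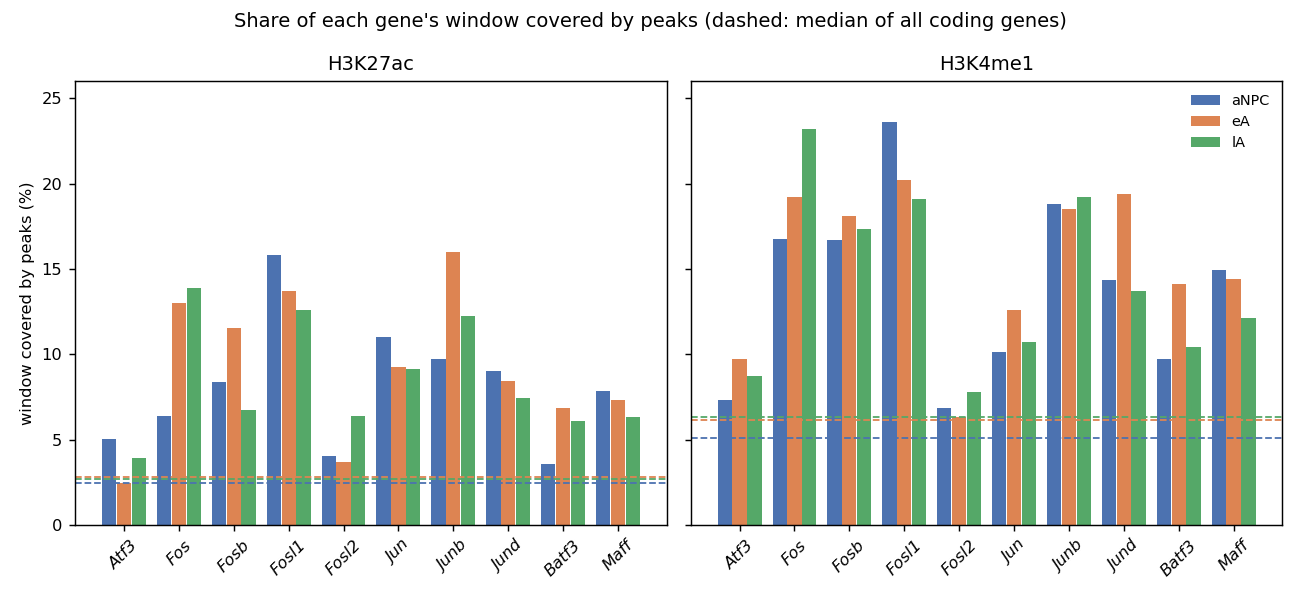
Share of each gene's window (gene body with 20 kb on each side) that was covered by H3K27ac peaks (left) or H3K4me1 peaks (right), in percent, in aNPC, eA and lA. Bars are the single value of each merged list and the dashed lines are the medians of all coding genes. The Fos bars for H3K27ac climb from 6.41% in aNPC to 13.9% in lA, and the Atf3 bar in eA stands below the dashed line at 2.47%.

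At the promoters, taken as the 1 kb before a coding start site and the 100 bp behind it, all 10 genes had an H3K27ac peak at both earlier stages and 7 had one in lA. Such a peak was found at 50.6%, 53.2% and 48.2% of all coding genes at aNPC, eA and lA. Fosb, Fosl1 and Junb were the genes without a promoter peak in lA. Of all coding genes, 5.05% had a promoter peak in aNPC and none in lA, and 2.66% had the reverse. The peak was present at all 3 stages in 7 of the 10 genes and in 45.2% of all coding genes. An H3K4me1 peak lay at the promoter of 8, 8 and 6 genes at the successive stages, where the shares among all coding genes were 55.4%, 53.6% and 52.7%. These H3K4me1 calls depended in part on the settings, since Maff in eA was lost at a −log10 q of at least 5 and in lists of equal length, Fos in lA was lost in lists of equal length, and Fosl2 had a peak in aNPC with promoters of 1 kb on either side. To compare strengths without comparing −log10 q between lists, each peak was given a rank, the percentage of peaks of its own list with a higher −log10 q, so that a low rank is a strong peak. Ranks and peak widths still depend on the length and depth of a list, and differences between stages are given as descriptions. The strongest promoter peak of each gene was used.

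**Figure D2:**
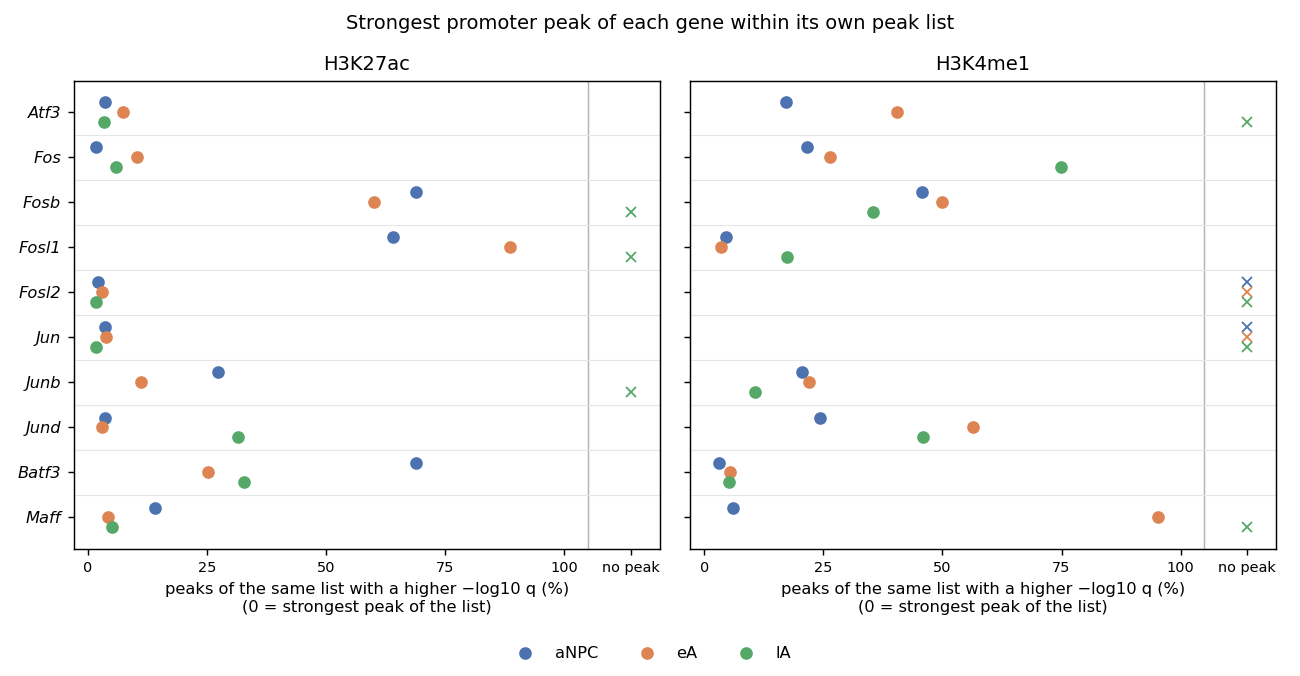
Rank of the strongest promoter peak of each gene within its own list (x axis, percent of peaks with a higher −log10 q) for H3K27ac (left) and H3K4me1 (right), with 1 point per stage and crosses for no peak. Atf3, Fos, Fosl2 and Jun sit at the strong end for H3K27ac at each stage, between 1.58% and 10.3%, whereas Fosb and Fosl1 sit between 60.1% and 88.6% in aNPC and eA and have crosses in lA. The Fos point in lA is a peak that overlaps the promoter but has its summit 1.43 kb upstream of the start site.

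Atf3, a stress-induced factor that often acts as a repressor, had one of the strong promoters. Its H3K27ac peak ranked at 3.48%, 7.39% and 3.41% in aNPC, eA and lA. These peaks lay just downstream of the start site, mostly in an intron, and contain the intron element shown above. A weaker peak directly upstream of the start site, at a rank of 44.2%, was called in aNPC only. H3K4me1 peaks at the promoter were narrower or absent in the later lists. The mark formed a peak of 1396 bp across the start site in aNPC (rank 17.1%), a peak of 372 bp upstream of it in eA (rank 40.5%) and none in lA.

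Fos, Fosl2, Jun and Jund, which encode AP-1 subunits, had promoters of the same kind. For Fos, the best known immediate early gene, the H3K27ac rank was 1.75%, 10.3% and 5.87% in aNPC, eA and lA. The aNPC peak was 655 bp wide and spanned the start site and the CArG box. In eA the peak was 2117 bp wide, and in lA a peak of 1915 bp lay upstream beside one of 280 bp that ended just before the start site. The lA rank of 5.87% was that of the wider peak, whose summit lay 1.43 kb upstream, beyond the promoter as taken here. The peak of 280 bp ranked at 16.8%. Fosl2, a Fos protein with a more lasting expression, ranked at 2.08%, 2.92% and 1.66% in aNPC, eA and lA. Jun, the most studied partner of Fos, ranked at 3.50%, 3.73% and 1.58%. The promoters of Fosl2 and Jun had no H3K4me1 peak at any stage. At Jun, H3K4me1 regions were centred 1.51, 2.17 and 3.07 kb upstream, each at all 3 stages, and so flanked the H3K27ac of the promoter. At Fosl2 the flanking H3K4me1 regions were centred 2.71 kb upstream, at the promoter of Gm10463, and 1.76 kb downstream of the start site.

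Jund, the Jun protein expressed broadly in resting cells, ranked at 3.48% in aNPC and 3.005% in eA. In lA its promoter peak ranked at 31.5%, while a peak 1.18 kb downstream of its second start site ranked at 1.65%. This strong peak lay in the exon of Jund and at a promoter of the predicted gene Gm11175, beyond the Jund promoter as taken here. Maff, a small Maf protein without an activation domain of its own, ranked at 14.04%, 4.22% and 5.04% in aNPC, eA and lA for H3K27ac. Its strongest H3K4me1 promoter peak in aNPC (rank 6.11%) belonged to a region centred 0.603 kb downstream that was called at all 3 stages. This region ranked at 7.36% in eA and 20.8% in lA, where its peaks no longer reached the promoter as taken here. Another region, centred 0.277 kb upstream, ranked at 37.9% in aNPC and was not called in lA. In eA it gave the only H3K4me1 promoter peak, near the end of the list (95.3%). In lA no H3K4me1 promoter peak was called. With promoters taken as 1 kb on either side of a start site, Maff had H3K4me1 in lA and Atf3 did not.

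The remaining promoters were weaker in H3K27ac in most lists. For Fosb, an immediate early Fos protein, H3K27ac ranked at 68.8% in aNPC and 60.1% in eA and was not called in lA. Its eA summit window held a CArG box. Directly behind the Fosb start site, centred at 0.680 kb in the gene, stood one of the strongest H3K4me1 regions of each list, at 1.35%, 1.33% and 0.207% in aNPC, eA and lA. For Fosl1, a Fos protein of proliferating cells, the H3K27ac promoter peak ranked at 64.1% in aNPC and 88.6% in eA and was absent in lA, and its H3K4me1 peak ranked at 4.48%, 3.43% and 17.4%. Batf3, which pairs with Jun proteins and is known from dendritic cells, had H3K27ac ranks of 68.8%, 25.2% and 32.8% and H3K4me1 ranks of 2.995%, 5.35% and 5.10%. Batf3 was thus weak in H3K27ac in aNPC only, whereas Fosb and Fosl1 had weak or no promoter H3K27ac at each stage beside H3K4me1 at the start site or just behind it. Junb, a Jun protein induced together with Fos, ranked at 27.3% in aNPC and 11.2% in eA. Its lA peak, at a rank of 52.1%, stopped short of the promoter but began less than 1 kb behind the start site.

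The 5 genes most like Atf3 in their promoter ranks over the 6 lists, taken from the gene and marker lists named below and from the 10 genes themselves, were Btg2, Fos, Nfia, Map2k3 and Dusp6. Their largest difference from Atf3 in any list was 21.6 percentage points for Btg2, 25.1 for Fos, 25.3 for Nfia, 32.9 for Map2k3 and 35.8 for Dusp6. Fos was the one member among them. A gene without a promoter peak was given a rank of 100, and Atf3 had no H3K4me1 promoter peak in lA. The largest differences of Btg2, Fos and Map2k3 were each between a called lA H3K4me1 peak and this missing one, not between 2 called peaks.

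Away from promoters the 3 lists of H3K27ac merged into 83 regions at the 10 genes, of which 15 lay at a member's own promoter, 13 at the promoter of another gene and 55 were distal. Of the distal regions, 16 (29.1%) were called at all 3 stages, against 20.4% of 78231 distal regions around all coding genes. There were 15 (27.3%) called in eA and not in aNPC, against 29.1%, and 10 (18.2%) called in aNPC and not in eA, against 25.5%. From eA to lA, 11 (20%) were newly called and 12 (21.8%) were no longer called, against 23.5% and 18.2%. From aNPC to eA neither gain nor loss was more common at these genes than around coding genes in general.

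**Figure D3:**
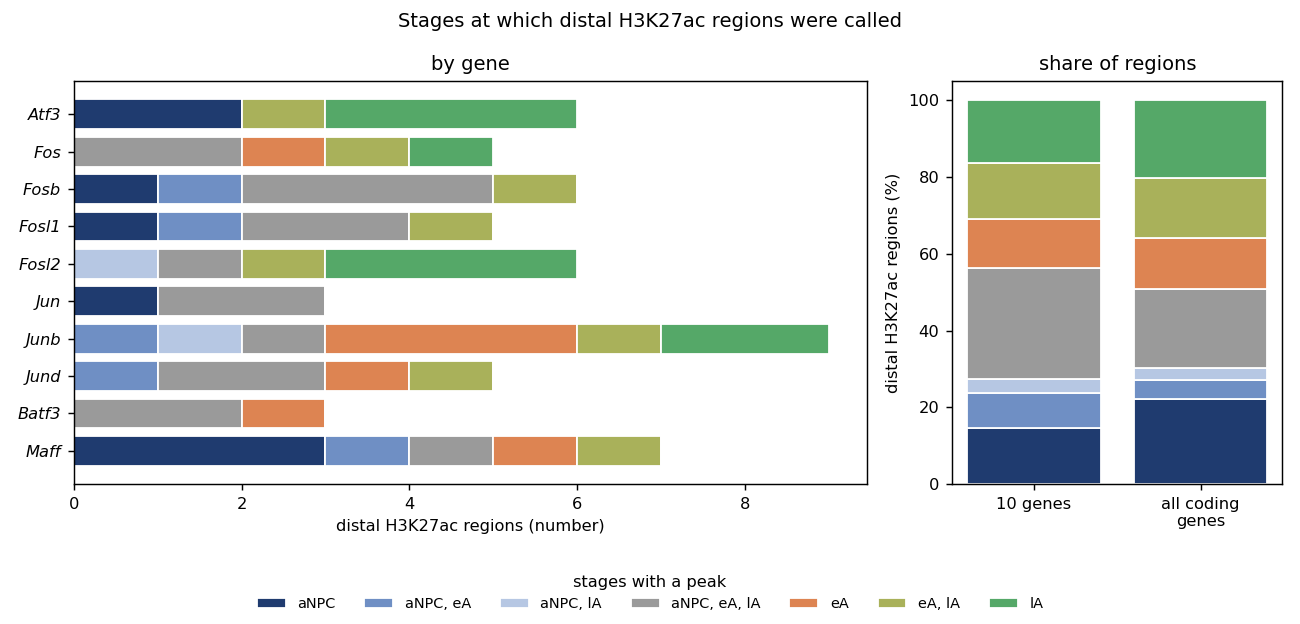
Number of distal H3K27ac regions of each gene by the stages at which a peak was called (left), and the same as a share of all distal regions of the 10 genes and of all coding genes (right, in percent). Regions called at all 3 stages make up 29.1% for the 10 genes and 20.4% for all coding genes, and Atf3 has none of them among its 6 regions.

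The 15 distal regions called in eA and not in aNPC belonged to 9 of the genes, all but Jun. Of these, 13 (86.7%) already had an H3K4me1 peak in aNPC, against 64.1% of such regions around all coding genes. The exceptions were weak regions 13.2 kb upstream of Jund and 10.6 kb upstream of Junb. Of the 11 regions called in lA and not in eA, 8 (72.7%) had H3K4me1 in eA, against 66.5%. Of the 10 regions called in aNPC and not in eA, 8 (80.0%) had an H3K4me1 peak in eA, against 68.4%. More of the distal H3K4me1 regions were constant. Of 86 distal H3K4me1 regions, 43 (50%) were called at all 3 stages, against 37.5% around all coding genes, and each of the 10 genes had at least 1 of them. From aNPC to eA, 16 (18.6%) were newly called and 5 (5.81%) were no longer called, against 21.1% and 9.92%. From eA to lA, 15 (17.4%) were newly called and 14 (16.3%) were no longer called, against 25.6% and 16.4%.

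Atf3 was the gene with no distal H3K27ac region constant through the 3 stages. Its 6 distal regions were split between the ends of the process. In aNPC only, H3K27ac was called 12.2 and 13.2 kb downstream of the start site, at the 3′ end of the gene, at ranks of 29.0% and 28.3%. In eA and lA, a region 1.27 kb downstream in the gene was called at ranks of 43.4% and 93.3%. H3K4me1 was called there in aNPC only, weakly, at a rank of 89.7% and a −log10 q of 4.06. In lA only, 3 regions appeared 5.89, 6.31 and 7.29 kb upstream, at ranks of 85.8%, 78.2% and 37.7%. The first pair were weak calls, with −log10 q of 4.20 and 4.89, and a minimum of 5 removed both, the Atf3 upstream element shown above among them. An H3K4me1 region centred 6.85 kb upstream was called before, at a rank of 91.3% in aNPC and 30.2% in eA, and stayed in lA at 35.4%. It overlapped the regions at 6.31 and 7.29 kb but not that at 5.89 kb. The region at 6.31 kb is the Atf3 upstream element, whose STAT and RUNX matches lie 3 bases apart. Neither match lay wholly within 100 bp of the lA summit, and no share of such matches over whole regions was computed. In lA H3K4me1 also formed a region 2.05 kb inside the gene at a rank of 18.0%, which had ranked at 47.5% in eA.

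For Fosb, the clearest element was centred 9.75 kb upstream. Its H3K4me1 ranked at 0.286%, 0.761% and 0.2702% in aNPC, eA and lA, among the strongest peaks of each list. H3K27ac was not called there in aNPC and ranked at 22.1% in eA and 27.7% in lA. A further region 16.9 kb upstream had H3K27ac at all stages, at 16.8%, 18.9% and 7.71%. A region 8.98 kb downstream ranked at 6.63%, 6.26% and 4.66%. Inside the gene, a region 1.82 kb behind the start site ranked at 31.6%, 7.62% and 12.4% in aNPC, eA and lA. Another at 1.05 kb ranked at 64.1% in aNPC and 42.2% in eA and was not called in lA. So Fosb had strong distal acetylation at each stage, in eA and lA also within the gene. Its promoter peak was weak in aNPC and eA and not called in lA.

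For Fos, H3K27ac 18.2 kb upstream ranked at 27.5%, 3.83% and 2.03% in aNPC, eA and lA. Downstream, a region at 11.9 kb was absent in aNPC and ranked at 8.93% in eA and 16.5% in lA. Its H3K4me1 became weaker in rank, from 14.96% through 71.4% to 98.4%, while the H3K4me1 region next to it, 13.3 kb downstream, kept ranks of 4.26%, 3.51% and 8.38%. The neighbouring region at 12.5 kb was called at all stages with ranks of 25.2%, 21.5% and 26.6%. Weak regions were added 13.8 kb downstream in eA only and 10.8 kb upstream in lA only, the latter with a CArG box. No other coding gene lies in the Fos window.

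For Maff the distal regions changed on both sides. H3K27ac 12.4 and 11.8 kb upstream was called in aNPC only, at ranks of 47.3% and 27.7%, on H3K4me1 that ranked at 0.770%, 1.11% and 31.4% in aNPC, eA and lA. The region 12.1 kb downstream was also called in aNPC only, at 79.8%, and its H3K4me1 stayed among the strongest of the list, at 0.978%, 2.23% and 0.644%. In an intron of Tmem184b, 20.8 kb downstream, H3K27ac was absent in aNPC and ranked at 46.8% in eA and 39.7% in lA, and H3K4me1 was there at each stage. This is the Maff downstream element shown above, with its TGAGTCA away from both summits. In these data no region can be tied to one of the genes around it.

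**Figure D4:**
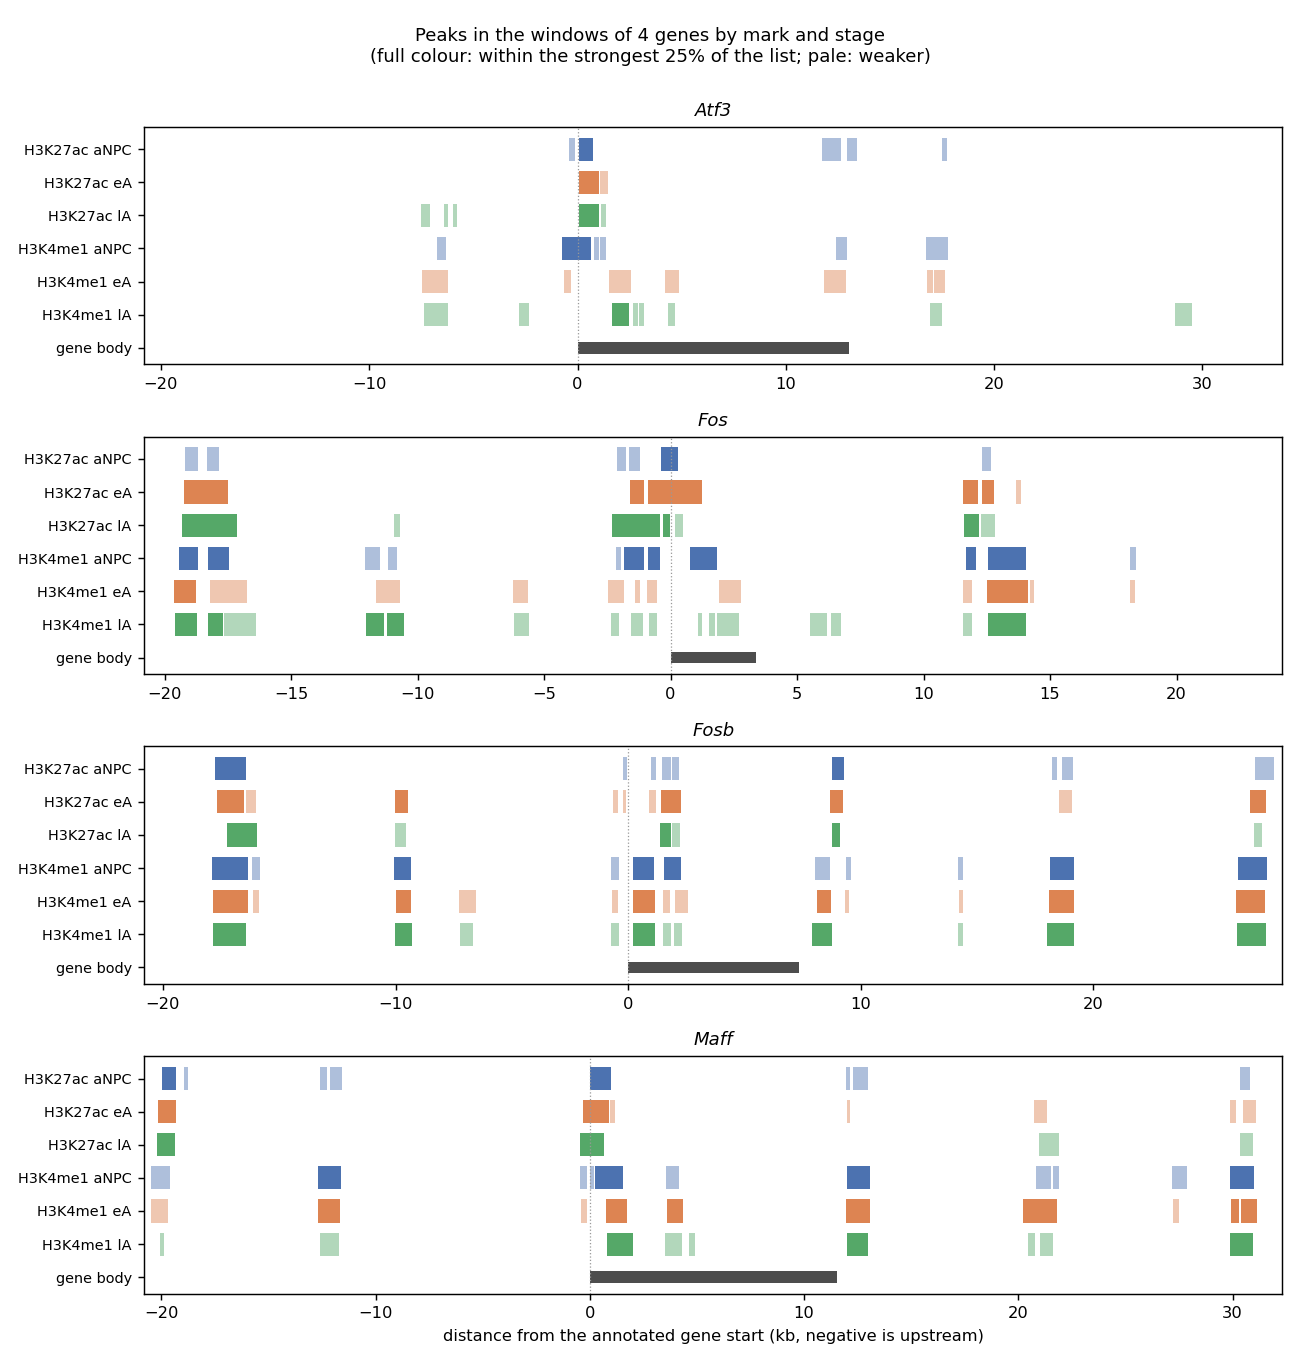
Peaks of H3K27ac and H3K4me1 at Atf3, Fos, Fosb and Maff by stage, along the distance from the annotated gene start in kb (negative is upstream, dark bar is the gene body). Full colour marks peaks among the strongest 25% of their list. H3K27ac appears 5.89 to 7.29 kb upstream of Atf3 in lA only, 9.75 kb upstream of Fosb in eA and lA, and 11.8 to 12.4 kb upstream of Maff in aNPC only.

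Among the Jun genes, Junb had the most distal regions, 9, of which 3 were called in eA only and 2 in lA only. The eA regions were weak, at ranks of 69.1% for the region 13.01 kb downstream in Rnaseh2a, 88.5% for that at 10.6 kb upstream and 76.2% for that 19.6 kb upstream in Hook2. The Junb upstream element, which held 3 copies of TGAGTCA, was centred 6.90 kb upstream and ranked at 34.0% in aNPC, was not called in eA and ranked at 97.1% in lA. Its H3K4me1 ranked at 1.64%, 1.79% and 0.344%. Jun had only 3 distal regions, one of them 14.1 kb downstream with ranks of 11.3%, 29.4% and 21.1%. Jund gained a region 3.62 kb downstream, at 81.7% in eA and 42.3% in lA, and no longer had that at 12.1 kb downstream in lA.

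For Fosl1, the element 13.9 kb upstream, with its 2 copies of TGACTCA, ranked at 14.7% in aNPC and 80.7% in eA and was not called in lA. H3K4me1 there hardly moved in rank, at 3.30%, 3.70% and 2.25%. Farther out, the H3K27ac region 17.5 kb upstream ranked at 34.6%, 25.4% and 9.17%. Fosl2 had 3 distal regions in lA only, all weak, at ranks of 93.1%, 62.1% and 96.2%. Batf3 had one region in eA only, 17.0 kb downstream at a rank of 65.4%, and one 25.5 kb downstream that ranked at 28.3%, 17.7% and 7.33% in aNPC, eA and lA.

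Over the summits of the H3K27ac peaks, in windows of 200 bp, the AP-1 motif was found in few peaks. It was present in 5 of 68 member peaks in aNPC (7.35%), 4 of 68 in eA (5.88%) and 2 of 67 in lA (2.99%), against 3.61%, 3.58% and 3.47% of all peaks of these lists. The CRE was found in 1 member peak, at Jund in eA, and in 0.164%, 0.156% and 0.152% of all peaks. The STAT match was found in 7, 4 and 3 member peaks, or 10.3%, 5.88% and 4.48%, against 5.82%, 6.14% and 6.15%. RUNX was found in 1, 3 and 4, or 1.47%, 4.41% and 5.97%, against 3.90%, 3.73% and 3.90%. The CArG box was in 1 member peak at each stage, or 1.47%, 1.47% and 1.49%, against 0.880%, 0.924% and 0.965% of all peaks. The full palindromic NF1 site was in none, and in 0.0189%, 0.0252% and 0.0162% of all peaks. With so few peaks a single match moves a share by over 1 percentage point, and several windows share a sequence because the same region was called at more than one stage.

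Among related genes, H3K27ac at the promoter was common as well. Of all coding genes, 50.6%, 53.2% and 48.2% had it in aNPC, eA and lA. It was present in aNPC and absent in lA at 5.05% of them, and the reverse at 2.66%. Of 27 other bZIP genes found, 23 had it in aNPC, 21 in eA and 20 in lA. Mafa and Cebpb had it in aNPC only, and Bach1 lost it in lA. All 18 genes of the MAP kinase pathway that signals to AP-1 had it in aNPC and eA and 16 had it in lA. Those without it in lA were Mapk8, which encodes the Jun kinase JNK1, and Map2k4, which encodes a kinase that activates JNK. The 16 with it in lA included the other JNK genes and another gene for a kinase that activates JNK. Of 22 other immediate early genes, 19 had it in aNPC, 19 in eA and 17 in lA. Ier2 and Ier5 were without it in lA, Arc had it in aNPC only, and Ctgf, which encodes a matrix protein, had it in eA and lA only.

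The stage labels were set against marker genes through the same promoter peaks. Of 10 astrocyte markers, 6 had H3K27ac at all 3 stages, the water channel gene Aqp4 had it in lA only and the gap junction gene Gja1 in eA and lA only. S100b had it in aNPC only and Aldh1l1 at no stage. Of 7 neural progenitor markers, 6 had it at all stages, lA included. Of 6 neuronal markers, Tubb3 had it at all stages and Syt1 in aNPC only. None of the 4 markers each of pluripotent cells, microglia, oligodendrocytes, and fibroblasts or endothelium had it at any stage. At the edge of the windows, the last H3K27ac peak inside lay 19606 bp from Fosb in aNPC at a rank of 33.5% and the first outside lay 20097 bp from Fos in eA at 65.4%. For H3K4me1 these were 19866 bp from Maff in lA at 86.6% and 20087 bp from Fos in lA at 0.658%, so that a strong H3K4me1 peak lay just beyond the Fos window.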

How the data were processed

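ChIP-seq of H3K27ac and H3K4me1 in aNPC, eA and lA was used, 12 of 51 samples. RNA-seq, siRNA and siRNA control samples were not analysed here, and 8 samples stayed unassigned because their labels disagree. Per the study's methods the authors aligned reads with Bowtie to mm9, merged the 2 replicates of each stage and mark with SAMtools 0.1.19 and called peaks with MACS2 at default settings without input. The deposited lists give for each peak its position, summit, score, fold enrichment ratio and −log10 q. A column of p was not used, the deposited score and fold ratio were not compared. Library depth is not given in the sources used here, so no interval was computed for a peak value. A 95% binomial interval, which covers counting error only, was used for the motif shares in the alternatives.

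Peaks were counted for a gene when at least 1 bp overlapped its mm9 gene body or the 20 kb around it. Promoter peaks overlapped the 1 kb before a coding start site or the 100 bp behind it, and the other peaks were distal. Overlapping peaks of the 3 stages were merged into regions. Ranks are the percentage of peaks in the same list with a higher deposited −log10 q, because −log10 q depends on depth and was not compared between lists. Motifs were searched as exact letters on both strands in 200 bp around summits and in 250 bases before to 50 after start sites. They were also searched in the whole H3K27ac regions of the members and in the printed sequences. For these searches no share over all genes or peaks was computed, except for the moved Fos window. TGACATCA and TTACGTCA were added after the promoters had been seen. Sequences were read from mm9. The members and gene lists were chosen with earlier results of these data known. All 10 genes are named, and other genes are named where the promoter peak changed with stage, where their promoter lies in a window, or as the 5 most like Atf3. Alternatives were another window, promoter, overlap and motif window, a −log10 q of at least 5 and lists of equal length. Scripts used Python 3.11.15, NumPy 2.4.6, pysam 0.24.0, samtools 1.23.1 and matplotlib 3.10.9 and were tested on simulated data.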

Additional observations from a re-analysis of the deposited data

How the results depend on the processing

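Because the replicates were merged, none could be left out. No paired analysis was possible because the authors merged the replicates before peaks were called and the results come from no test. Of 102 values recomputed, 27 moved, counts by more than 1.5 times or shares beyond their 95% binomial interval, and 75 did not. With 67 or 68 member peaks this interval is wide and treats peaks as independent, so it is no sign that the shares were stable. With 10 kb around the genes there were 41, 43 and 49 H3K27ac peaks in aNPC, eA and lA, and 58, 66 and 81 H3K4me1 peaks. The H3K27ac count was thus higher in lA with 10 kb, unlike that with 20 kb. With 50 kb there were 127, 132 and 136 H3K27ac and 191, 213 and 219 H3K4me1 peaks. Distal regions with 10 kb numbered 3 in aNPC only, 1 in eA only, 8 in lA only and 9 at all stages. With 50 kb they numbered 12 in eA only, 18 in lA only, 8 in aNPC and eA, 5 in aNPC and lA, 17 in eA and lA, and 37 at all stages. Regions called in eA and not in aNPC numbered 8 with 10 kb, of which 8 had H3K4me1 in aNPC, and 29 with 50 kb, of which 21 did. These counts follow the size of the window. A −log10 q of at least 5 left 5 regions in lA only and 1 in aNPC and lA, and lists of equal length also left 1 of the latter. The same minimum of 5 also removed the H3K27ac calls of the Fosl1 upstream element in eA, of the Junb upstream element in lA and of the region 12.1 kb downstream of Maff in aNPC. It likewise removed the Fosl1 promoter call in eA, which left 9 genes with promoter H3K27ac there, the Atf3 region at 1.27 kb in lA, the Fos region 10.8 kb upstream in lA, the Jund region at 3.62 kb in eA, the regions 10.6 kb upstream of Junb and 13.2 kb upstream of Jund in eA, and the Fosl2 regions at 3.04 and 22.04 kb in lA. In windows of 500 bp, 16.2%, 11.8% and 10.4% of member peaks in aNPC, eA and lA held an AP-1 or CRE motif, each over 1.5 times the share in 200 bp, against 9.91%, 11.7% and 10.8% of all peaks of the lists. With a −log10 q of at least 5 the lA share was 1.79%, over 1.5 times below that of the full list, against 3.45% of all lA peaks. A stricter minimum overlap and promoters of 1 kb on either side moved no count by over 1.5 times. Unknown depth limits every statement that a peak was absent.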
